A study of Mus musculus with 6 samples.

Results

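The unedited B16F10 cells of this series were described across all genes, with no comparison to the edited cells. B16F10 is a mouse melanoma cell line, a highly metastatic line of skin pigment cell tumour. The members were the libraries that the labels call wild type, 3 of 6 in all (WT replicates 1, 2 and 3), and the other 3 libraries, from cells with the annexin A10 gene (Anxa10) knocked out, were not used here. Anxa10 itself was listed at 0 in every wild-type library. The labels give no treatment, age or passage for the wild-type cells, and they do not say whether the replicates were separate cultures, so the spread between them may be technical. The cells are 1 established line, so the libraries describe that line alone. Total RNA was taken with Trizol, treated with DNase I and sequenced on the Illumina platform.

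The unit is TPM, an estimate of the share of a library's transcripts that belong to a gene, corrected for transcript length, so that levels of different genes can be set side by side. The depth of the libraries cannot be read from TPM, and a gene without reads is written here as listed at 0. Below, 3 values in a row are WT replicates 1, 2 and 3 in that order, and mean ± SD is over these 3 libraries. The labelled cell type was checked with 5 markers. Tyrp1, an enzyme of melanin synthesis (chr4:80834123-80851719, + strand), was at 3008, 2871 and 3068 TPM. Dct, another melanin enzyme (chr14:118012790-118052244, - strand), was at 1957, 2032 and 1909 TPM. Mlana, a melanosome membrane protein (chr19:29697824-29708634, + strand), was at 2819, 2099 and 2579.7 TPM. These pigment markers were high in every library, with Mlana lowest in replicate 2. Mitf, the master regulator of pigment cells (chr6:97807052-98021349, + strand), was at 55.95, 58.2 and 56.2 TPM, and Vim, the intermediate filament of mesenchymal cells (chr2:13573927-13582826, + strand), at 2704, 2854 and 2859 TPM. All 5 markers were present in every library. Coordinates here are of GRCm38 in the GENCODE M21 annotation.

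WT replicate 2 stood apart from the other libraries. Over the 12094 genes with a mean of 1 TPM or more, the median SD of log2(TPM + 1) between libraries was 0.145. For the pair of libraries left, it was 0.14 without WT replicate 1, 0.0672 without WT replicate 2 and 0.15 without WT replicate 3. WT replicates 1 and 3 were thus the closest pair. The gene groups in which replicate 2 was high are described last, and the values of each library are given throughout so that each level can be read with and without it.

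Melanocytes make melanin in melanosomes, organelles related to lysosomes, from which the pigment is passed to skin and hair. MITF, a basic helix-loop-helix leucine zipper factor, binds short E-box sequences before the genes of this programme, among them CATGTG and CACGTG, and SOX10 and PAX3 act upstream of it. TFEB and TFE3, close relatives of MITF, bind CACGTG before lysosomal genes. The melanoma cell keeps or loses this programme depending on its state, and a loss goes along with an invasive, mesenchymal-like state in many tumours.

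The promoters of the pigment genes are shown here because these genes define the lineage of the cells. RefSeq promoters of GRCm38.p6, 250 bases before to 50 bases after each start, were searched on both strands for CATGTG. The other motif searched was CACGTG, which reads the same on both strands. Matches of the 2 motifs cannot share letters, while CATGTG on one strand can overlap CATGTG on the other. Of 23 pigment genes, 17 had an entry, and 8 of these (47.1%) held CATGTG, against 15.9% of 27025 genes with an entry and 14.2% of all 32851 promoters. CACGTG stood before 4 of them (23.5%), against 8.09% of genes and 7.15% of promoters. A gene with several starts was counted when any of them held the motif. The shares describe letters only, and binding was not measured. Each stretch below is 90 bases, 5′ to 3′ on the strand of the gene, with the motif in capitals, and the position is that of its first letter before the start. Tyrp1 (chr4:80834123-80834212, + strand) has CATGTG at position -46. Dct (chr14:118052349-118052438, - strand) has it at -150, with a further match upstream of the stretch shown, and Tyr, which encodes tyrosinase (chr7:87493513-87493602, - strand), at -21. In Slc24a5, a melanosome ion exchanger (chr2:125068037-125068126, + strand), it lies on the other strand, as CACATG, at -13. Mc1r, the receptor of melanocyte-stimulating hormone (chr8:123406992-123407081, + strand), has it at -62 and -51, the first of them on the other strand. Mlph, which links melanosomes to the actin motor (chr1:90915010-90915099, + strand), has CACGTG at -48. Vim (chr2:13574221-13574310, + strand) has neither motif in the searched window. The same holds for the pigment genes Gpnmb, Cd63, Myo5a, Mreg, Rab32 and Tmem251 and for each start of Mitf. Only pigment gene promoters that hold a motif are printed. Lamp1, a lysosomal membrane protein (chr8:13159071-13159160, + strand), has CACGTG at -61, -45, -28 and -15.
Tyrp1: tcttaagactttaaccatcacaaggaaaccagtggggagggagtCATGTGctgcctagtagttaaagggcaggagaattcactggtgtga
Dct: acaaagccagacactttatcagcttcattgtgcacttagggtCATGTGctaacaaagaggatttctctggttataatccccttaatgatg
Tyr: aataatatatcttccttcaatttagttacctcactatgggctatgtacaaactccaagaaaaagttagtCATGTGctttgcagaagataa
Slc24a5: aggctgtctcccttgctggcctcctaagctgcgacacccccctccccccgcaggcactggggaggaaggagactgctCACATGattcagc
Mc1r: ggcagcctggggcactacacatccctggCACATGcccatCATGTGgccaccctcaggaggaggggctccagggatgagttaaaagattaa
Mlph: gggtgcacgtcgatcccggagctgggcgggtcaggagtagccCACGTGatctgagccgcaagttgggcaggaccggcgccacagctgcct
Vim: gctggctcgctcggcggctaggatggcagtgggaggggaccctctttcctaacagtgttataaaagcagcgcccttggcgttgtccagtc
Lamp1: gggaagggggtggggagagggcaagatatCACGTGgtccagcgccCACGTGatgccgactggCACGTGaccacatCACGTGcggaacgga

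Pigment genes took 1.44, 1.34 and 1.39% of all TPM, with 23 genes of the melanin enzyme and melanosome structure lists. This was 1.39% ± 0.0502 (SD, n = 3), and 5 genes (Tyrp1, Gpnmb, Mlana, Dct and Pmel) made up 86.1% of it. The libraries were close, with replicate 2 the lowest. The 3 enzymes were far from equal. Tyrosinase, which catalyses the first step from tyrosine, is encoded by Tyr, which was at 22.1, 24.2 and 23.3 TPM. Tyrp1 was 129 ± 8.94 times the level of Tyr and Dct 84.8 ± 3.204 times. The enzymes of the later steps thus stood far above tyrosinase in all 3 libraries, with no overlap. Tyrp1 against Dct gave a ratio of 1.52 ± 0.09803.

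Among melanosome structure genes, 19 of 20 were at 1 TPM or more in every library, against 48.8% of all protein-coding genes. Of the 20, 8 had a mean of 100 TPM or more. Gpnmb, a glycoprotein of late melanosomes and lysosomes, was at 2517, 2628 and 2541 TPM. Pmel, whose protein forms the fibrils on which melanin is laid down, was at 1835, 1558 and 1704 TPM, and Cd63, a tetraspanin of melanosomes and lysosomes, at 818, 832 and 851 TPM. Gpnmb and Cd63 were even across the libraries, while Pmel and Mlana were lowest in replicate 2. Gpnmb and Mlana overlapped in range, so their order is not resolved, while Mlana and Dct did not overlap. Rab38, a small GTPase that carries enzymes to the melanosome, was at 249.7, 219 and 239.7 TPM. The transporters came in a wide order, with Slc24a5 at 146, 129.6 and 139 TPM, Slc45a2, a proton-coupled carrier, at 102, 97.5 and 98.5 TPM, and Oca2, an anion channel, at 8.41, 11.4 and 8.05 TPM. Atp7a, the copper pump that loads tyrosinase, was at only 1.25, 3.62 and 1.57 TPM, and the cystine carrier Slc7a11 at 0.49, 1.34 and 0.4 TPM. Slc24a5 and Slc45a2 stood clear of Oca2, and Atp7a and Slc7a11 were the lowest members and were highest in replicate 2. The machinery that moves ripe melanosomes was present in its 3 parts: Rab27a at 52.6, 67.3 and 50.8 TPM, its adaptor Mlph at 165, 132 and 162 TPM and the motor Myo5a at 48.3, 58.2 and 46.8 TPM. Of the organelle assembly genes (subunits of the BLOC, AP-3 and HPS complexes), 16 of 16 were at 1 TPM or more in every library, from Bloc1s3 at a mean of 3.47 TPM to Dtnbp1 at 127.

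**Figure D1:**
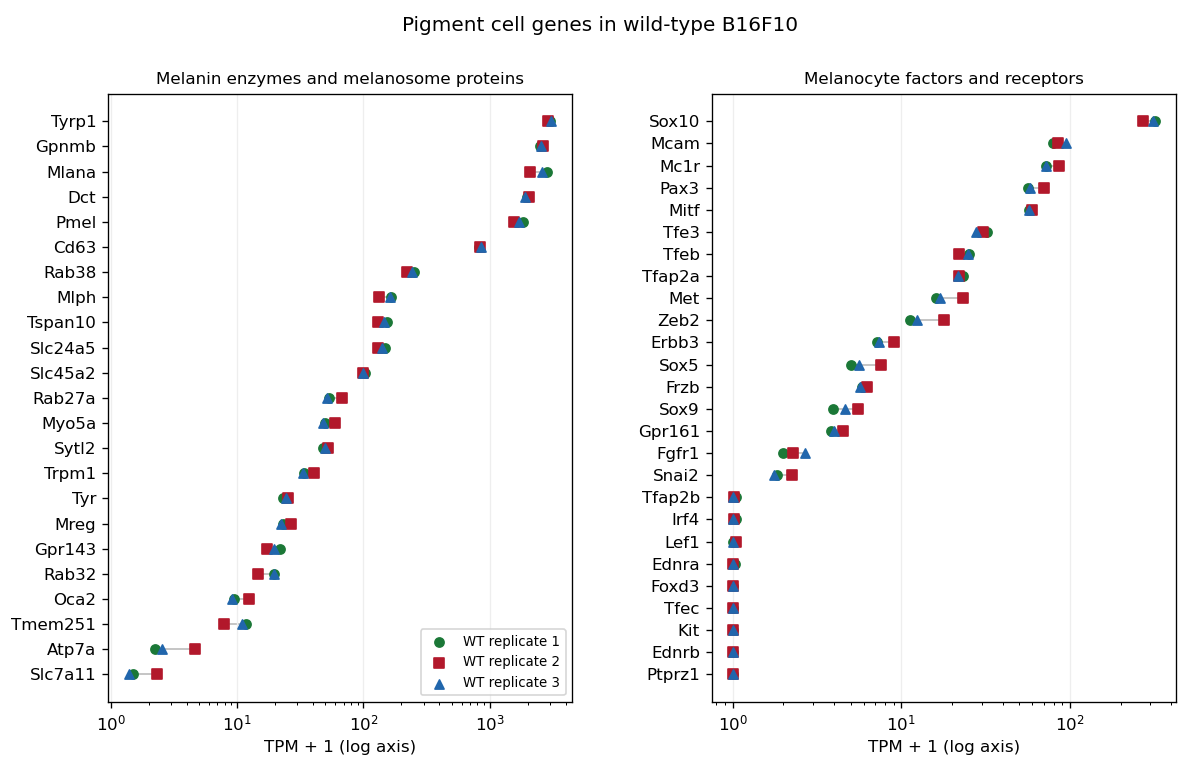
Levels of the pigment cell genes, in TPM + 1 on a log axis, with each symbol 1 library and the grey line the range of the 3 libraries. Tyrp1, Gpnmb, Mlana, Dct and Pmel lie above 1000 TPM in every library, Tyr lies near 23 TPM, and Kit, Ednrb and Ptprz1 lie at 0 (drawn at 1).

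The regulators of the pigment cell differed in level. Of the melanocyte transcription factors, 9 of 15 were at 1 TPM or more in every library and 2 (Foxd3 and Tfec) were listed at 0 in all. Over the 623 transcription factors described below, the corresponding shares were 48.3% and 24.4%. Sox10, the neural crest factor that keeps the lineage, led the list at 318, 269.9 and 312 TPM, which was 5.29 ± 0.574 times Mitf. Pax3, which acts with Sox10 on Mitf, was at 55.5, 69.2 and 57.1 TPM and was highest in replicate 2. Pax3 overlapped with Mitf in range. The Mitf relatives Tfe3 and Tfeb were at 31.3, 29.4 and 26.8 TPM and 24.4, 20.9 and 23.8 TPM, below Mitf in every library, and Tfap2a, an AP-2 factor of the neural crest, was at 22.3, 20.9 and 20.7 TPM. Sox9, which marks a less differentiated state, was at 2.95, 4.52 and 3.65 TPM, and Sox10 was 84.4 ± 24.1 times as high. Zeb2, the ZEB factor of normal melanocytes, was at 10.2, 17 and 11.4 TPM, and Zeb1, its counterpart in invasive melanoma, at 0.04, 0.09 and 0.01 TPM. Sox5, a repressor that acts against Sox10, was at 4.04, 6.6 and 4.59 TPM. Snai2 was at 0.83, 1.25 and 0.75 TPM, Irf4, a partner of Mitf at Tyr, at 0.04, 0.02 and 0 TPM, Lef1 at 0, 0.05 and 0 TPM and Tfap2b at 0.05, 0.02 and 0 TPM. These last 4 were thus low or near 0 in every library.

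Of the melanocyte receptor list, 6 of 11 were at 1 TPM or more in every library, against 48.8% of all protein-coding genes. Mcam, an adhesion receptor first found on melanoma, was at 78.8, 83.95 and 93.5 TPM, and Mc1r at 70.8, 85.7 and 71.02 TPM. The receptors Kit, Ednrb and Ptprz1, of which the first pair guides melanoblasts in the embryo, were listed at 0 in every library, and Ednra was at 0.03, 0 and 0.01 TPM. Kitl, the ligand of Kit, was at 0.18, 0.33 and 0.21 TPM. Met, the receptor of hepatocyte growth factor, was at 15.1, 22.3 and 15.98 TPM, highest in replicate 2, and Erbb3 at 6.14, 8.02 and 6.34 TPM. The other members were Frzb, a secreted protein and not a receptor, at 4.84, 5.27 and 4.71 TPM, Gpr161 at 2.84, 3.51 and 2.99 TPM and Fgfr1 at 0.99, 1.27 and 1.67 TPM. Of 29 genes that textbook accounts place under Mitf, 26 were at 1 TPM or more in every library, and Ptgds, a prostaglandin synthase, was the highest that is not a melanosome gene, at 662, 681 and 644 TPM. Birc7, an inhibitor of cell death, was among the 3 members under 1 TPM in every library.

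The mesenchymal list was carried by few genes. Of 19 members, 7 were at 1 TPM or more in every library, against 48.8% of all protein-coding genes. Sparc, a secreted matrix protein, was at 416, 449 and 455 TPM and Fn1, fibronectin, at 60.3, 86.98 and 65.2 TPM. Cdh2, N-cadherin, was at 35.2, 39.9 and 35.04 TPM, and Vim was 76.7 ± 4.997 times as high. The inducers of the mesenchymal switch differed. Zeb2, given above among the melanocyte factors, was over 10 TPM in every library, while Snai1 was at 0.25, 0.15 and 0.36 TPM and Twist1 at 0.03, 0 and 0.03 TPM, and Prrx1, Foxc2 and Twist2 were listed at 0 in every library. Of 20 epithelial genes, 2 passed 1 TPM in every library. Cdh1, E-cadherin, was at 0.16, 0.13 and 0.05 TPM, Krt8 at 0.18, 0.07 and 0.17 TPM, and Epcam at 0 in all. The 2 exceptions were Tjp3, a tight junction protein, at 2.68, 5.39 and 3.08 TPM, and Grhl2, a factor of epithelia, at 48.97, 19.01 and 34.5 TPM, which was lowest in replicate 2. Grhl2 shares stretches of up to 185 bases at 95% identity or more with 2 other genes, and their part in its level was not tested. Of the 24 genes that mark undifferentiated or invasive melanoma, 11 were at 1 TPM or more in every library, against the same 48.8%. The highest was Jun at 34.7, 46.02 and 38.3 TPM. Axl, a receptor kinase of the invasive state, was at 15.1, 23.3 and 15.5 TPM, and Loxl2, a collagen crosslinking enzyme, at 8.36, 23.7 and 12.1 TPM. Both were highest in replicate 2. Egfr was at 0.23, 0.2 and 0.16 TPM, and Wnt5a was listed at 0 in every library.

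Adhesion receptors were present in part. Among 16 cadherins, 3 were at 1 TPM or more in every library (Cdh2, Cdh19 and Cdh13). Cdh19, a cadherin of the neural crest and Schwann cells, was at 9.83, 14.7 and 11.1 TPM. Among 26 integrin genes there were 10, where the share over all protein-coding genes was 48.8%. They were led by the shared beta subunit Itgb1 at 127, 179.5 and 141 TPM and the laminin-binding subunit Itga6 at 42.1, 58.05 and 49.9 TPM. Itgb3, which pairs with Itgav, was at 2.54, 4.15 and 2.71 TPM and Itgav at 11.6, 11.1 and 10.4 TPM. Itgb1 and Itga6 were highest in replicate 2, and the 2 subunits of the vitronectin receptor were both low.

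**Figure D2:**
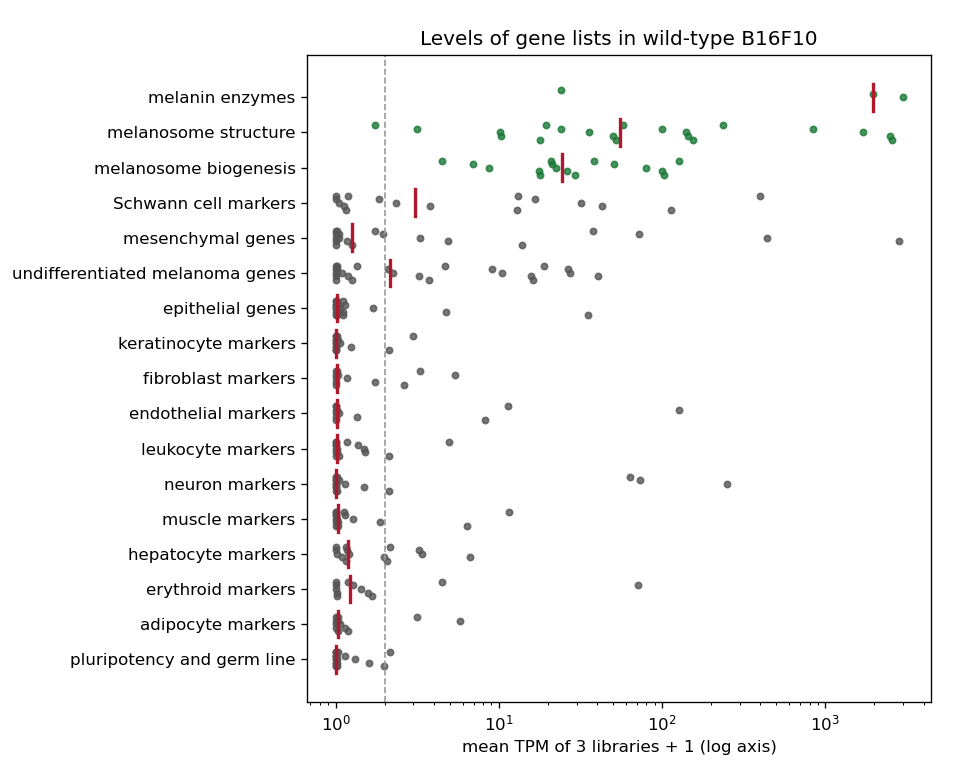
Mean levels of 17 gene lists, in TPM + 1 on a log axis, with each point 1 gene, the red bar the median of the list and the dashed line a mean of 1 TPM. The 3 pigment lists (green) lie to the right of the line apart from 1 gene, while the epithelial list and the lists of other cell types have medians under 1 TPM, apart from the Schwann cell list.

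Markers of other cell types were mostly absent. Every keratinocyte marker but Sfn stayed below 1 TPM in at least 1 library, with Krt5 and Trp63 listed at 0 and Krt14 at 0.34, 0.24 and 0.16 TPM. Sfn, a 14-3-3 protein, was at 2.52, 1.14 and 2.3 TPM. Of 12 fibroblast markers, Pdgfrb at 3.49, 5.52 and 4.15 TPM, Col1a1 at 1.93, 2.42 and 2.46 TPM and Postn at 1.45, 1.03 and 2.35 TPM were above 1 TPM, while Lum was at 0 and Dcn at 0, 0 and 0.03 TPM. Of 12 endothelial markers, Eng, a co-receptor of TGF-beta, was at 139, 107 and 133 TPM, Tek at 8.2, 15.8 and 7.32 TPM and Vwf at 5.96, 7.08 and 8.62 TPM, while the defining members Cdh5 and Pecam1 were at 0, 0.01 and 0 TPM and 0.03, 0.59 and 0.43 TPM. The summed level of the endothelial list was 153, 131 and 149 TPM, nearly all of it Eng. Of 16 leukocyte markers, Cd68, a lysosomal protein, was at 2.42, 4.7 and 4.8 TPM, and Ptprc and Cd3e were listed at 0. The leukocyte list summed to 4.72, 8.47 and 7.07 TPM. The muscle list had Mylpf at 6.26, 18.9 and 6.44 TPM and Des at 3.78, 6.3 and 6.15 TPM, with Myod1 at 0. The red cell list had Tfrc, the transferrin receptor of growing cells, at 67.9, 72.8 and 71 TPM and the erythropoietin receptor Epor at 3.21, 3.87 and 3.46 TPM, with Gata1 under 1 TPM. Of 14 liver markers 4 passed, Alb, albumin, highest at 5.69, 5.6 and 5.74 TPM, and of 12 fat cell markers 2 passed, with the glucose carrier Slc2a4 at 3.28, 5.13 and 5.95 TPM and the lipase Lipe at 1.91, 2.3 and 2.31 TPM. Apart from Eng and Tfrc, each gene named here for another cell type was under 20 TPM in every library.

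Peripheral glia descend from the same neural crest cells. Among the lists of other cell types, only the Schwann cell list had a median above 1 TPM, at 2.07. Of its 16 markers, 8 were at 1 TPM or more in every library. This is about the share over all protein-coding genes (48.8%), so the count does not set the list apart. The list summed to 641, 621 and 616 TPM, most of it from 1 gene, Mbp. Mbp, myelin basic protein, was at 423, 365 and 399.8 TPM, S100b at 39.6, 47.5 and 38.5 TPM and L1cam at 26.4, 39.2 and 26.7 TPM. Pmp22, a myelin membrane protein that other cells also make, was at 14.9, 17.1 and 15.1 TPM and the adhesion molecule Ncam1 at 10.3, 15.8 and 10.4 TPM. Sox2, a factor of immature glia, was listed at 0 in every library. Mbp shares short stretches of up to 91 bases with 276 other genes at 95% identity or more, and the part of such reads in its level was not tested. In the neuron list 3 of 18 passed, namely the tubulin Tubb3 at 234, 259.9 and 251 TPM, the ubiquitin hydrolase Uchl1 at 69.9, 63.6 and 81.8 TPM and the peripheral neuron filament Prph at 46.9, 84.02 and 56.1 TPM. Of 21 pluripotency and germ line genes, 0 did, and Pou5f1 was at 0, 0 and 0.04 TPM.

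In the whole table, 11420 of 51912 genes were at 1 TPM or more in every wild-type library, and 10665 of these were protein-coding, 48.8% of the 21870 protein-coding genes. A further 30630 genes were listed at 0 in every library, 6549 of them protein-coding. RNA was concentrated in few genes, since the 10 most abundant took 12.7, 12.96 and 12.7% of all TPM and the 100 most abundant 37.6, 37.3 and 37.8%. These 100 comprised 45 ribosomal protein genes, 15 pseudogenes, 6 mitochondrially encoded genes and 34 others. Tyrp1 held rank 38, Vim rank 40, Gpnmb rank 51, Mlana rank 53, Dct rank 78 and Pmel rank 91, so that 5 pigment genes and Vim stood among the 100 most abundant genes.

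Outside the organelle genome and the ribosome, the leading genes served glucose breakdown, iron storage and the cytoskeleton. Gapdh, a glycolytic enzyme, was at 12365, 15374 and 13375 TPM and was highest in replicate 2, as was Aldoa, aldolase, at 3058, 4499 and 3241 TPM. Ftl1, the ferritin light chain, was at 12406, 11152 and 11710.4 TPM, 3.65 ± 0.123 times the heavy chain Fth1. Tmsb10, which binds actin monomers, was at 6057, 6307 and 6425 TPM, while its relative Tmsb4x was at only 8.81, 9.88 and 11.96 TPM. Eef1a1, the elongation factor that brings tRNA to the ribosome, was at 5996, 6286 and 6407 TPM. Of the ribosomal protein genes in the 25 most abundant, Rplp1 of the ribosomal stalk was highest at 7475, 7188 and 8101 TPM, before Rpl32 at 6736, 6522 and 7007 TPM, and Rpl13a, Rpl36, Rpl23a, Rpl13, Rpl26 and Rps2 had means from 3596 to 4089 TPM. Genes of the ribosome took 15.8, 15.4 and 16.3% of TPM, and 91 of 96 by symbol were at 1 TPM or more in every library. The share at that level over all protein-coding genes was 48.8%. Of 24 neighbouring pairs among the 25 leading genes, only 3 did not overlap in range across the libraries. Overlapping genes can still keep their order within each library, as Tmsb10 was above Eef1a1 in every library.

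**Figure D3:**
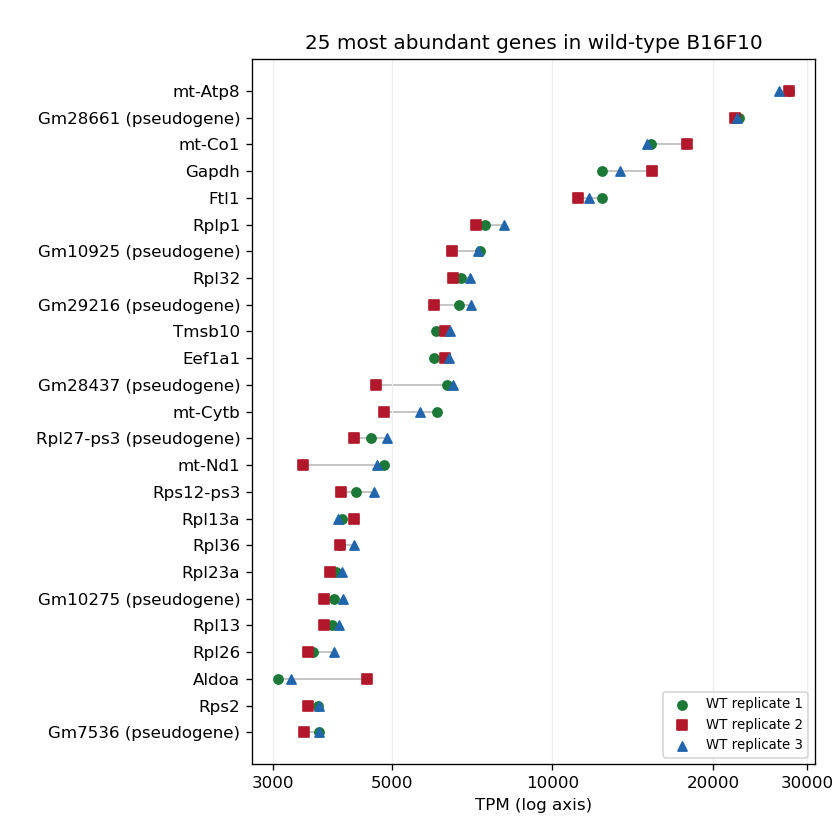
The 25 most abundant genes by mean level, in TPM on a log axis, with each symbol 1 library and the grey line the range of the 3 libraries. Values run from 27336 TPM for mt-Atp8 to 3576 TPM for Gm7536 (means), and 21 of 24 neighbouring pairs overlap.

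Several of the most abundant entries were pseudogenes whose sequence equals that of an active gene, and the level of either cannot be told apart from that of its copy. The 37 genes of the mitochondrial genome took 6.56, 6.48 and 6.32% of TPM, and a block of 7 annotated copies of mitochondrial genes on chromosome 1 took 4.98, 4.54 and 4.94%. Gm28661 (chr1:24614885-24615565, - strand) was at 22374, 21941 and 22166 TPM and mt-Co2, a cytochrome oxidase subunit with the same 681 bases, at 269.96, 257 and 574 TPM. The pair summed to 22644, 22198 and 22739.9 TPM, and in this sum replicates 1 and 3 were close although mt-Co2 was listed higher in replicate 3. Gm10925 was at 7316, 6483 and 7241 TPM with mt-Atp6 at 0, Gm28437 at 6352, 4667 and 6508 TPM with mt-Co3 at 0.26, 0.13 and 0.26 TPM, and Gm10222 at 3110.1, 3412 and 2887 TPM with mt-Nd4l at 0. Each of these copies equals its mitochondrial gene over 678, 783 and 294 bases, and nearly all of the TPM was listed under the nuclear copy. In the other direction, mt-Co1 was at 15276, 17859 and 15004 TPM and its shorter copy Gm29216 (chr1:24615706-24616197, - strand) at 6691, 6003 and 7028 TPM. Over 492 bases the copy differs from mt-Co1 at 6 positions, counted from 1 at the start of mt-Co1: T1056A, C1057T, A1059G, A1060G, C1062A and A1066T. The stretch that holds them is shown because outside it the compared letters are the same, with differing letters in capitals, and the first 60 bases of mt-Co2, which Gm28661 shares letter for letter, are added.
mt-Co1: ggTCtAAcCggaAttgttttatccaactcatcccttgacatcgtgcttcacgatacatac
Gm29216: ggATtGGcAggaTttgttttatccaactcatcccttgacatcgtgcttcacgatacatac
mt-Co2: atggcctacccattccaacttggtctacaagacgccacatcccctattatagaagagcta

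Together the mitochondrial genes and these copies held 11.5, 11.02 and 11.3% of TPM, a share within 1 percentage point in all libraries. mt-Atp8, a short subunit gene of the ATP synthase, was the most abundant entry of the table at 27693, 27759.6 and 26556 TPM. mt-Cytb, cytochrome b, was at 6084, 4847 and 5661 TPM and mt-Nd1, a complex I subunit, at 4839, 3417 and 4696 TPM, both lowest in replicate 2. Ribosomal protein pseudogenes were listed in the same way. Rpl27-ps3 was at 4568, 4251 and 4894 TPM and the gene Rpl27, identical over 411 bases, at 551, 637 and 492 TPM. Gm10275 was at 3894, 3737 and 4051 TPM and Rpl12, identical over 495 bases, at 134, 103 and 129 TPM. Gm7536 was at 3648, 3423 and 3657 TPM and its match Rpl27a at 522, 495 and 534 TPM, and Rps12-ps3, which the annotation lists as protein-coding, was at 4290.01, 4012 and 4629 TPM. Of the 15 pseudogenes in the 100 most abundant entries, 14 matched a protein-coding gene at 95% identity or more over at least 50% of their length, and 10 were listed above that gene. All pseudogene classes together took 9.72% ± 0.418 of TPM.

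Transcription factors were taken from a list of 623 genes in 31 families. Of these, 301 (48.3%) were at 1 TPM or more in every library and 152 (24.4%) were listed at 0 in all, and only 18 had a mean of 100 TPM or more. Ybx1, a cold shock protein that also binds RNA, led at 1279.5, 1268 and 1288 TPM, and its relative Ybx3 was at 674, 591 and 682 TPM. Tfap2d, an AP-2 factor known from the developing midbrain and retina, was second at 807, 653 and 747 TPM, lowest in replicate 2. The other AP-2 genes were far below it, as Tfap2a was the only other one above 1 TPM. Tfap2d shares a stretch of 171 bases at 95% identity or more with 1 other gene, and whether its level comes from the factor's own transcript was not tested. The chromatin proteins Hmga1, Hmgb1 and Hmgb2 were at 614, 479 and 563 TPM, 325, 321 and 326 TPM and 205, 212 and 211 TPM. Sox10 was the sixth factor, which placed a lineage factor among general ones. Atf4, the factor of the integrated stress response, was at 276, 329 and 241 TPM and Aebp1, a repressor of adipocyte genes, at 247, 228 and 251 TPM. Sox10 and Atf4 overlapped in range, as did Atf4 and Aebp1.

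The next factors were Ssrp1 of the histone chaperone FACT at 226, 199 and 216 TPM, the zinc finger factor Maz at 188, 166 and 189.5 TPM and Gtf2i at 133, 141 and 133 TPM. Plagl1, an imprinted zinc finger factor, was at 105, 182 and 102 TPM, Jund at 112, 154 and 114 TPM and Ddit3, a factor of endoplasmic reticulum stress, at 56.9, 166 and 61.4 TPM. These 3 were highest in replicate 2, and Ddit3 had the largest difference of replicate 2 among the 25. Usf2, an E-box factor, was even at 123, 126 and 123 TPM, as was Nfyc of the CCAAT-binding complex at 101, 95.1 and 104 TPM. Trp53, p53, was at 120.5, 100.4 and 115 TPM and Foxm1, a forkhead factor of mitotic genes, at 111, 96.4 and 106 TPM. The list of 25 closed with Nfe2l1, Tfdp1, Esrra, Srebf2, Nr1h2 and Lyar, at means from 76.04 to 88.4 TPM. Only 7 of 24 neighbouring pairs among them did not overlap.

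**Figure D4:**
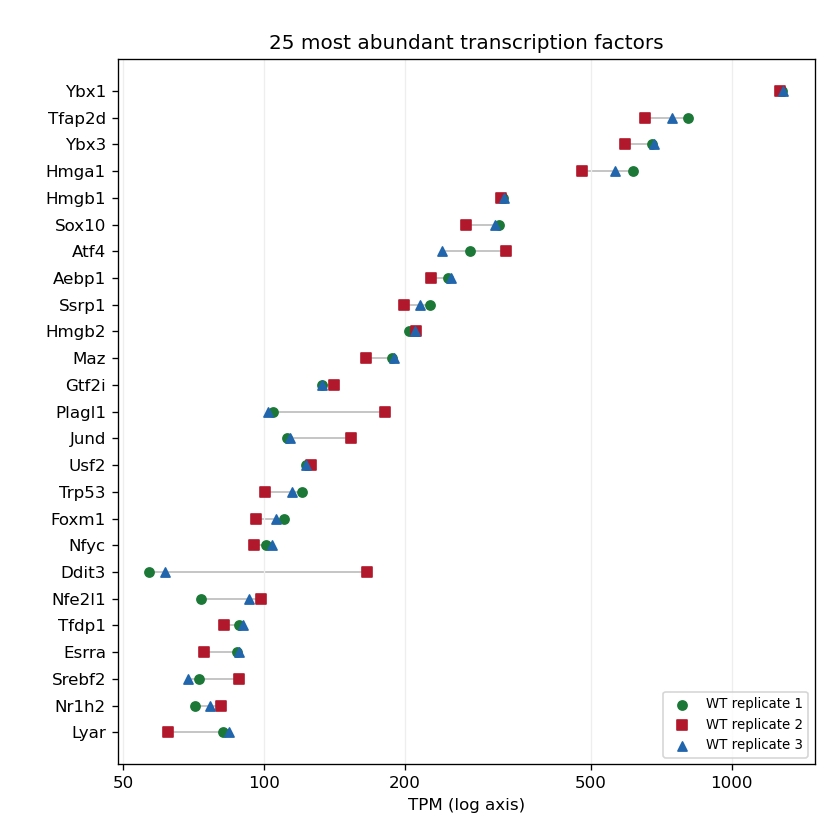
The 25 most abundant transcription factors by mean level, in TPM on a log axis, with each symbol 1 library and the grey line the range of the 3 libraries. Ybx1 lies near 1279 TPM, Sox10 near 300.1 TPM, and the widest line is that of Ddit3, from 56.9 to 166 TPM.

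By family, the highest member and the count above 1 TPM in every library differed widely. All 10 E2F and DP genes, all 8 SMAD genes and all 6 TEAD and co-factor genes passed, led by Tfdp1, Smad4 at 22.8, 40.04 and 27.1 TPM and Tead2 at 66.6, 77.9 and 64.3 TPM. Of 20 SOX genes 7 passed, and of 9 PAX genes only Pax3. Among 16 T-box genes 3 passed, with Tbx2, a repressor of cell cycle inhibitors, highest at 52.02, 53.4 and 51.2 TPM. Of 7 GATA-type genes only Trps1 did, at 1.64, 2.96 and 1.96 TPM. The ETS family had 13 of 23, with Ets1 at 55.1, 69.9 and 59.04 TPM, and the nuclear receptors 24 of 48, with Esrra at 87.8, 74.4 and 88.3 TPM. The other family leaders were Usf2, Id2 at 73.2, 47.5 and 64.9 TPM, Klf6 at 17.6, 33.6 and 21.01 TPM, Tgif2 at 37.2, 34.1 and 37.6 TPM, Pou6f1 at 5.6, 10.4 and 6.8 TPM, Cbfb at 33.2, 33.2 and 34.6 TPM, Tcf7l1 at 17.2, 16.2 and 15.6 TPM, Rela at 34.5, 30.1 and 33.7 TPM, Mef2d at 33.2, 37.2 and 31.4 TPM, Stat6 at 40.6, 45.2 and 43.5 TPM and Mybl2 at 36.4, 28.6 and 37.6 TPM.

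HOX genes carry a memory of position along the body. The HOXA cluster had the most members present, with 8 of 11 genes at 1 TPM or more in every library, against 1 of 10 in HOXB, 0 of 9 in HOXC and 2 of 9 in HOXD. Hoxa10 was highest at 23.01, 19.8 and 21.9 TPM, before Hoxa11 at 11.2, 8.72 and 9.34 TPM, and the 2 did not overlap. Hoxa3 was at 7.24, 8.69 and 7.2 TPM, while Hoxa6 and Hoxa13 were listed at 0. In the other clusters Hoxb9 was at 2.49, 4.49 and 2.78 TPM, Hoxd4 at 5.7, 6.94 and 4.16 TPM and Hoxd13 at 2.04, 1.85 and 2.19 TPM, and the highest of HOXC was Hoxc6 at 0.36, 0.77 and 0.2 TPM.

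Genes of the cell cycle were present throughout. All 36 DNA replication genes and all 36 mitosis genes were at 1 TPM or more in every library, with medians of 68.1 and 61.9 TPM. For all protein-coding genes the share at that level was 48.8%. Pcna, the sliding clamp of the replication fork, was at 393, 335 and 386 TPM, and Ube2c, which loads ubiquitin for the anaphase-promoting complex, at 319.5, 281 and 324 TPM. Mki67, the common marker of cycling cells, was at 84.3, 88.8 and 87.5 TPM. Of the cyclin-dependent kinases, Cdk1 was at 358, 315 and 315 TPM, Cdk4 at 323, 287 and 290.1 TPM and Cdk2 at 192, 241 and 197 TPM, while Cdk6, the relative of Cdk4 that also works with D-type cyclins, was at 3.26, 3.58 and 2.5 TPM. All 3 D-type cyclins were present, Ccnd3 highest at 176, 175 and 185 TPM, before Ccnd2 at 90.3, 121 and 89.6 TPM and Ccnd1 at 73.4, 74.6 and 76.6 TPM. Rb1, the retinoblastoma protein that Cdk4 phosphorylates, was at 5.57, 8.28 and 5.07 TPM.

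Inhibitors of these kinases were unequal. Cdkn1a, p21, was highest at 159.6, 186 and 152 TPM, then Cdkn2d at 63.8, 81.1 and 72.03 TPM, Cdkn1b, p27, at 28.8, 53.9 and 30.6 TPM and Cdkn2c at 25.3, 30.9 and 31.2 TPM, with Cdkn1c at 1.34, 1.71 and 1.55 TPM. Cdkn1a and Cdkn1b were highest in replicate 2. Cdkn2a, which encodes p16 and p19ARF, and Cdkn2b, p15, were both listed at 0 in every library. They lie side by side on chromosome 4, in a run of 8 protein-coding genes at 0 from Cdkn2a to Tusc1 (chr4:89274471-93335511). Mtap, the gene before them and an enzyme of methionine salvage, was at 176, 151 and 177 TPM, and Caap1, the gene after the run, at 8.98, 10.3 and 8.86 TPM. The run also holds Dmrta1, Zfp352, Elavl2 and Izumo3, and whether these genes are lost or silent was not tested and cannot be told apart from RNA levels alone.

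Among 25 genes often mutated or amplified in melanoma, all but Kit were at 1 TPM or more in every library. The share over all protein-coding genes was 48.8%. Ctnnb1, beta-catenin, led at 565, 598 and 554 TPM, before Akt1 at 528, 479.7 and 521 TPM. Of the RAS genes, Hras was at 111, 83.4 and 116 TPM and Nras at 24.7, 29.9 and 25.9 TPM, and the kinase Braf was at 7.44, 10.5 and 7.75 TPM. Tert, the telomerase subunit, was at 1.02, 1.93 and 1.19 TPM. Of the tumour suppressors 18 of 20 passed, with the cell cycle inhibitor pair as the exceptions, and Nf1, which switches RAS off, was at 16.9, 21.6 and 12.4 TPM. TPM says nothing of mutations in these genes.

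Of 48 receptor tyrosine kinases, 20 were at 1 TPM or more in every library, where the share over all protein-coding genes was 48.8%. Mertk, which takes part in the uptake of dead cells, was highest at 68.4, 84.2 and 72.3 TPM. Ddr1, a collagen receptor, was at 60.6, 58.99 and 58.8 TPM, the ephrin receptor Epha3 at 32.9, 50.4 and 36.8 TPM and Ryk, a co-receptor of Wnt ligands, at 37.98, 38.2 and 38.8 TPM. Fgfr2, at 118, 87.1 and 1.25 TPM, was high in 2 libraries and near 1 TPM in replicate 3. Of 68 secreted signals, 22 passed, against the same 48.8%. Among them Mif, a cytokine with tautomerase activity, exceeded all others at 3062, 3191 and 3289.9 TPM. Vegfa, the main angiogenic factor, was at 40.3, 108 and 48.1 TPM, highest in replicate 2, while Vegfb was at 148, 120.01 and 128 TPM. Il15 and Il34 were high in replicate 1 alone, at 33.6, 2.69 and 4.27 TPM and 21.3, 0.49 and 1.21 TPM. In the Wnt and Notch list 21 of 54 passed, again against 48.8%. The receptor Fzd7 was at 25.4, 32.5 and 25.2 TPM and the co-receptor Lrp5 at 19.01, 25.9 and 19.9 TPM. Axin2, a feedback target of Wnt signalling, was at 8.53, 17.3 and 4.28 TPM.

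The title of the series names annexin A10, TRIM41, which is a ubiquitin ligase, and PKD1, read here as protein kinase D1. Anxa10, the gene knocked out in the other libraries (chr8:62057042-62123150, - strand), was listed at 0 in all 3 wild-type libraries, and so was Prkd1, protein kinase D1 (chr12:50341231-50649098, - strand). Trim41, a ubiquitin ligase (chr11:48806404-48817353, - strand), was at 24.9, 26.1 and 20.4 TPM. Of the annexins and galectins, Anxa10 among them, 14 of 20 were at 1 TPM or more in every library. The corresponding share of all protein-coding genes was 48.8%. Lgals1, galectin 1, was highest at 1508, 1505 and 1679.6 TPM, and the leading annexins were Anxa5 at 402, 362 and 375 TPM, Anxa2 at 281, 384 and 311 TPM and Anxa1 at 91.5, 112 and 104 TPM. Anxa2 overlapped with Anxa5 in range.

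Genes of metabolism and protein folding were nearly all present, where 48.8% of all protein-coding genes were at 1 TPM or more in every library. All 22 glycolysis genes passed 1 TPM in every library, with Eno1 at 3108, 4091 and 3462 TPM, Pkm at 2238, 3019.8 and 2458 TPM and Ldha, lactate dehydrogenase A, at 1934, 2987 and 2193 TPM. Ldha was 6.38 ± 1.53 times Ldhb, the ratio being highest in replicate 2. Cholesterol synthesis had 23 of 24, led by Fdps at 197, 201 and 192 TPM. Of the heat shock list 26 of 27 passed. The constitutive members Hsp90ab1 and Hspa8 were at 1768, 1657 and 1767 TPM and 1709.6, 1151 and 1705 TPM, while the stress-induced Hspa1b and Hspa1a were at 3.62, 1.85 and 3.67 TPM and 0.04, 0.02 and 0 TPM. Among redox genes, Gstp1, a glutathione transferase, was at 2788, 2835 and 2766 TPM and Gpx4, which detoxifies lipid peroxides, at 617, 613 and 619 TPM, while the quinone reductase Nqo1 was under 1 TPM.

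Lysosomal genes share promoter letters with the pigment genes. Of 28 members 26 were at 1 TPM or more in every library (48.8% over all protein-coding genes), with a median of 88.2 TPM. Atp6v0c, a proton pump subunit, was at 882, 797 and 876 TPM, the protease Ctsd at 667, 655 and 662 TPM and Lamp1 at 338, 344 and 342 TPM. Ctsk and Ctss, proteases of bone-resorbing and immune cells, were the exceptions, both below 1 TPM in every library. Of 21 lysosomal genes with a promoter entry (Cd63 left out as a pigment gene), 8 (38.1%) held CACGTG and 6 (28.6%) CATGTG. The shares over all genes with an entry were 8.09% and 15.9%. The CATGTG of Ctsa, Ctss and Neu1 lies after the start. CACGTG was the more frequent motif here and CATGTG in the pigment genes, but the counts are small and this difference was not tested. The 4 copies of CACGTG before Lamp1 are those printed above.

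Large families of the senses, immunity and hair were mostly listed at 0. The share at 0 in every library was 29.9% over all protein-coding genes and 59.0% over all genes. Of 1091 odorant receptor genes, 956 (87.6%) were listed at 0 in every library and 1 was at 1 TPM or more in all. The corresponding counts at 0 were 314 of 328 vomeronasal receptors, 55 of 56 keratin-associated proteins, 40 of 42 beta-defensins and 207 of 210 T cell receptor segments. All 250 immunoglobulin segments were at 0. Keratins were at 0 in 40 of 53. The clustered protocadherins of neurons differed, as 1 of 22 in the beta cluster was at 0 but none reached 1 TPM in every library. Families of the basic machinery were the opposite. All 78 mitochondrial ribosomal protein genes and 36 of 40 proteasome genes were at 1 TPM or more in every library, against 48.8% of protein-coding genes. By chromosome, the share of protein-coding genes at that level ran from 34.7% on X to 60.8% on chromosome 12, with 2 of 183 on Y.

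The spread between the wild-type libraries was small for most genes and large for a minority. Of the 9389 genes with a mean of 5 TPM or more, 305 (3.25%) differed over 2-fold between the highest and lowest library on the TPM + 1 scale, 2.16% of protein-coding genes and 27.7% of the 401 others. Genes over 2-fold higher in 1 library than in both others numbered 41, 78 and 36 for replicates 1, 2 and 3, and those lower 32, 30 and 23. Without WT replicate 2 the count over 2-fold was 133.

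Genes of the response to low oxygen were highest in replicate 2, all 20 of 20 with a mean of 5 TPM or more. The median log2 difference of replicate 2 from the mean of the others was 0.98, against 0.06 over all 9389 genes at that level, of which 51.1% were highest in replicate 2. Bnip3, a mitophagy receptor, was at 74.9, 256 and 94.4 TPM, Ero1l, an oxidase of the endoplasmic reticulum, at 77.1, 238 and 95.7 TPM, and Pdk1, which keeps pyruvate from the mitochondria, at 12.7, 50.96 and 19.2 TPM. In each of them replicate 2 stood above both others, and replicate 3 was higher than replicate 1. Hk2, hexokinase 2, was at 55.05, 138 and 67.7 TPM, Ndrg1 at 47, 109 and 57.05 TPM and Higd1a at 63.5, 108 and 77.2 TPM. Glycolysis genes shared the direction, with 19 of 21 highest in replicate 2 and a median difference of 0.49. Slc16a3, the lactate exporter, was at 76.6, 195 and 95.8 TPM, Slc2a1, the glucose carrier, at 46.1, 96.1 and 55.2 TPM and Pgk1 at 1688, 2613 and 1881 TPM. The immediate early genes had a median difference of 0.49 over 10 genes, led by Ier3 at 58.9, 120.4 and 73.97 TPM.

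The list of endoplasmic reticulum stress genes was split in replicate 2, with 10 of 21 highest and 10 lowest there. Ddit3 and its targets, chosen after their values were seen, stood at the upper end, and Trib3 at 25.3, 71.2 and 20.9 TPM and Chac1, which degrades glutathione, at 37.03, 76.5 and 30.6 TPM were highest there. The chaperone Hspa5 was lowest there at 340.5, 249.6 and 347 TPM, and the list as a whole had a median difference of -0.06. Other lists lay lower in replicate 2. A housekeeping list, mostly RNA polymerase II subunits, had a median difference of -0.16. The heat shock list had a median difference of -0.15 (18 of 25 lowest in replicate 2) and the DNA replication list one of -0.11 (24 of 36), and over all genes 3099 of 9389 were lowest there. Hsph1, a co-chaperone of Hspa8, was at 68.8, 36.3 and 75.1 TPM, and Pcna and Tyms, thymidylate synthase, were also lowest there, with Tyms at 253, 198 and 249.6 TPM. Melanosome structure genes had a median difference of -0.09, and mitosis genes one of 0.04.

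Transcript length moved with replicate 2 as well. Over protein-coding genes with a mean of 5 TPM or more, its median log2 difference was -0.06 for the 394 genes with a longest transcript of up to 1000 bases and 0.23 for the 430 genes over 8000 bases, with -0.04, 0.03 and 0.15 between. The hypoxia genes had medians of 0.95 for 12 genes of up to 4000 bases and 1.02 for 8 longer ones. The part of length in these differences was not tested. For glycolysis the corresponding medians were 0.49 (15 genes) and 0.43 (6 genes). Both groups rest on 1 library and have no replicate.

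**Figure D5:**
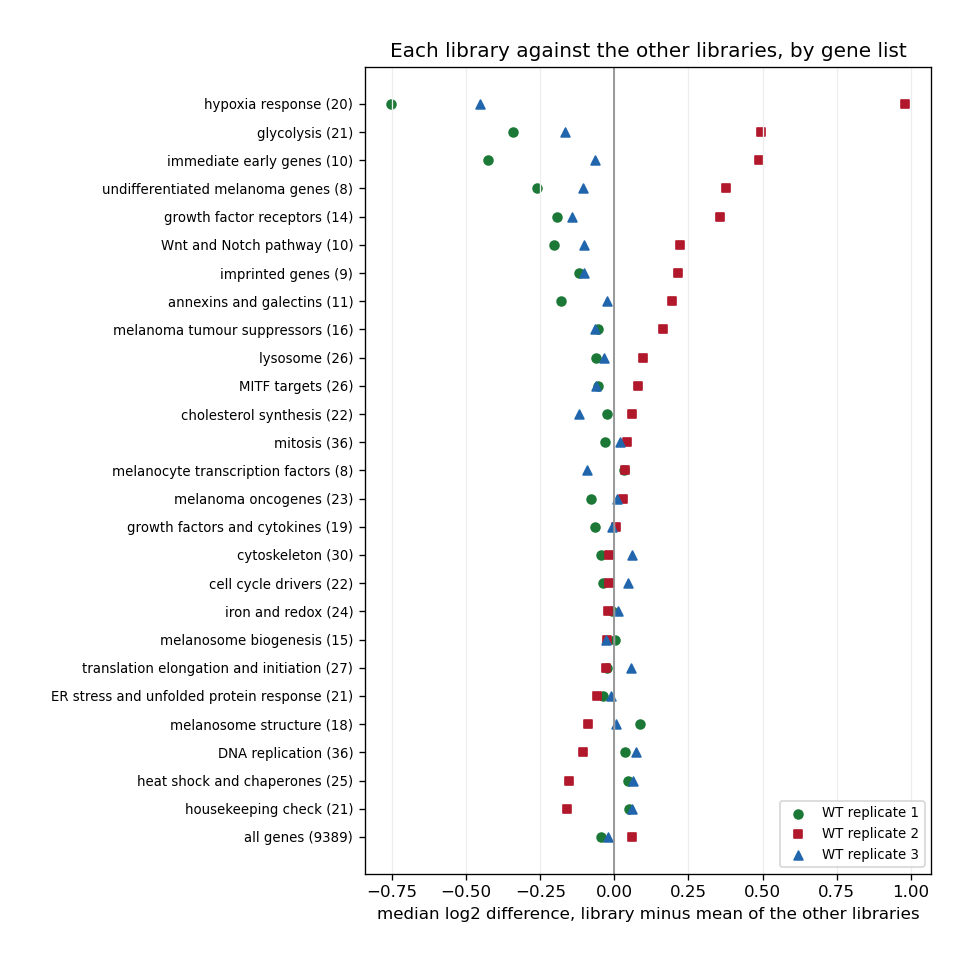
Median log2 difference of each library from the mean of the other libraries, on the log2(TPM + 1) scale, for lists with at least 8 genes of a mean of 5 TPM or more (number of genes in brackets) and for all genes in the last line. Replicate 2 (red squares) lies at 0.98 for the hypoxia list and 0.49 for glycolysis, and the libraries lie within 0.2 of 0 in the lists from lysosome downwards.

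Each library had genes in which it alone was low. With a mean of 20 TPM or more, 18 genes were over 2 times lower in replicate 3 than in both other libraries, 8 of them protein-coding. The corresponding counts were 12 for replicate 1 and 16 for replicate 2. Genes over 2 times higher in 1 library numbered 8, 29 and 10 for replicates 1, 2 and 3. The set low in replicate 3 held RNAs that are not messengers. The ribosomal RNA entry CT010467.1 was at 1841, 1363 and 339.7 TPM, the RNA component of the signal recognition particle at 249.6, 254 and 85.1 TPM for Rn7s1 and the same for its twin Rn7s2, and Rn7sk, which restrains transcript elongation, at 69.7, 34.2 and 4.99 TPM. Rmrp and Rpph1, the RNAs of the RNases MRP and P, were at 122, 92.5 and 10.3 TPM and 85.5, 58.2 and 19.8 TPM. Beside them stood protein-coding genes, Filip1l at 2488, 1687 and 605 TPM, Gphn, the scaffold protein gephyrin, at 2064, 1349 and 455 TPM, Sspn at 563, 366 and 144 TPM, Tmtc2 at 326, 224 and 74 TPM, Il31ra at 204, 261 and 38.1 TPM, Jarid2 at 37.99, 32.5 and 12 TPM and Fgfr2. In each of these entries replicate 3 was the lowest, and the order of replicates 1 and 2 varied. Whether these levels come from the messenger or from other RNA within the gene was not tested for any of them. These genes were named after their values had been seen.

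The largest spreads were those of genes present in 1 or 2 libraries and nearly absent from the rest. Of the 100 genes with the largest SD at a mean of 10 TPM or more, 45 had predicted or clone names and are not named. Ica1l, a protein of secretory vesicles, was at 0.13, 69.4 and 0.17 TPM (SD 3.43 on the log2 scale), and Edil3, a matrix protein that binds integrins, at 1.07, 82.02 and 1.5 TPM, both in replicate 2 alone. Pla2g4e, Diaph2 and Grik3 shared that pattern, at 0.03, 45.02 and 0.01 TPM, 0.69, 71.1 and 0.94 TPM and 0.07, 30.1 and 0.03 TPM. Replicate 1 alone held Lrrk2, a kinase known from Parkinson disease, at 83.7, 2.14 and 1.13 TPM, Fbxl7 at 159, 3.92 and 8.97 TPM, Cdo1, cysteine dioxygenase, at 48.9, 0.4 and 0.56 TPM, Zfp536 at 38.5, 0.2 and 0.17 TPM and the non-muscle myosin Myh10 at 33.7, 0.16 and 0.05 TPM. In replicate 3 the leading genes of this kind were Ndst3, a heparan sulfate enzyme, at 2.26, 2.27 and 63.03 TPM and Zyg11a at 3.56, 0.05 and 31.4 TPM, while Slc6a20a and Crygn were highest in replicate 2 and at 0 in replicate 1, at 0, 34.7 and 8.52 TPM and 0, 26.2 and 5.32 TPM. Of these 15 genes, Fgfr2 was over 50 TPM in 2 libraries and each other in at most 1. Edil3, Lrrk2, Fbxl7, Cdo1, Zfp536, Myh10, Grik3, Ndst3, Zyg11a and Crygn had no stretch of 50 bases or more at 95% identity in any other gene of the annotation. The longest such stretch was 425 bases in Slc6a20a, 382 in Ica1l (to Fam117b), 314 in Fgfr2, 155 in Pla2g4e and 133 in Diaph2. For each of these genes 1 library held most of the summed TPM.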

How the data were processed

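The deposited table holds TPM (transcripts per 1000000) for 51912 genes in 6 libraries. Values carry decimals, and the wild-type columns (WT replicates 1, 2 and 3) sum to 978491, 976570 and 985045, short of 1000000. Some genes may thus have been left out of the table, and percentages of TPM in the Results are of these sums. The same values stand in each wild-type library's own table (3 of 3). Per the submitters' processing notes, the authors used fastp, HISAT and RSEM with GRCm38.p5. The versions, settings and strand handling that they used were not given in the sources used here. Depth is therefore unknown and no counting interval is given.

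Only the 3 wild-type libraries entered, with TPM as deposited and no contrast or test. Spread was the SD of log2(TPM + 1). Gene identifiers were matched to GENCODE M21 (GRCm38) for 51719 genes, and copies were found with blastn 2.17.0 among its transcripts. Promoters are RefSeq's. Computation used Python 3.11.15 with pandas 2.3.3, and the spread measures were tested on simulated data. The members and gene lists were chosen with earlier results of these data known. Named were the 25 most abundant genes and factors, up to 6 leading members of each list (all of the short pigment, inhibitor and title lists), most of the other cell types' members with a mean of 1 TPM or more and the 15 most variable genes. Any further gene, such as list members named for being low, was chosen after its values were seen. Thresholds, scalings, pseudocounts and left-out libraries were varied. Some members of the lists are not reported here.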

Additional observations from a re-analysis of the deposited data

How the results depend on the processing

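Genes at 1 TPM or more (11420) and genes at 0 (30630) stayed within 1.5 times of these counts under each alternative tried, and without 1 library they ran from 11519 to 11637 and from 31597 to 31855. The share of the 100 most abundant genes, 37.6%, was 34.9% without mitochondrial genes, 32.4% without these and their chromosome 1 copies (an alternative chosen after seeing the data), 27.1% for 50 genes and 48.9% for 200, and 37.5 to 37.7% without 1 library. The pigment share, 1.39%, was 1.48% without mitochondrial genes and 1.56% without the copies as well, 1.36% under median-of-ratios scaling and 1.36 to 1.41% without 1 library. The median SD ran from 0.0672 to 0.15 without 1 library, the lowest without WT replicate 2. The 305 genes over 2-fold became 638 at a mean of 1 TPM, 192 at 10 TPM and 133 to 231 without 1 library, the lowest again without WT replicate 2. Without the mitochondrial genes, the mean of 133 other named genes moved by more than 1 SD, because the rest was rescaled, and that of 186 did not. Of all 323 named genes, none moved by that much under median-of-ratios scaling. Of the genes that the naming rule chose with a mean of 1 TPM or more, leaving out 1 library moved the mean by over 1.5 times in 21, among them Bnip3, Ero1l, Ddit3, Mylpf and Axin2 without WT replicate 2 and all of the 15 most variable genes, each without the library where it was highest. Pdk1, Trib3, Il15, Il34 and Rn7sk, named outside the rule, also moved by over 1.5 times.

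No paired analysis was possible because the report makes no comparison between groups, and the wild-type and knockout numbers share only the number 1. TPM keeps no depth, so low levels and values at 0 have no detection limit. Labels do not say whether the replicates are separate cultures. Levels of near-identical copies, overlapping genes and antisense partners cannot be told apart.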

Other observations

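Of 30 imprinted genes, which are read from 1 parental copy, 12 were at 1 TPM or more in every library. Over all protein-coding genes, 48.8% were at that level and 29.9% were at 0 in every library. Gnas, the stimulatory G protein subunit downstream of Mc1r, was at 1073, 1096 and 1077 TPM, Sgce at 47.5, 44.3 and 48.3 TPM and Peg10 at 15.8, 14.1 and 15.5 TPM, while 8 members were listed at 0 in all. Of the cancer testis list 5 of 26 passed, with Maged1 at 184, 199 and 188 TPM and Pramef8 at 8.75, 10.6 and 7.64 TPM, and 15 were at 0. Xist, the RNA of X inactivation, was at 0, 0.01 and 0 TPM. Of 9 listed Y-linked genes 6 were at 0, and the highest of the 9, Kdm5d, was at 0.03, 0.03 and 0.05 TPM. Outside that list, 2 of 183 protein-coding genes on Y were at 1 TPM or more in every library. The highest on Y was Gm21693, at a mean of 61.5 TPM.

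Some genes best known from other tissues were abundant in all 3 libraries, and they were named after their values had been seen. Col19a1, a collagen of muscle and brain whose gene lies near the block of mitochondrial copies on chromosome 1 (chr1:24261890-24587472, - strand), was at 1512, 1488 and 1392 TPM. Gabrb1, a GABA receptor subunit, was at 615, 476 and 637 TPM and Abca13, a lipid transporter, at 479, 355 and 533 TPM. None of the 3 has a stretch of 50 bases or more at 95% identity in another gene, and the part of the gene that gave these reads was not tested.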
